A study of Mus musculus with 4 samples.

Results

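Aminoacyl-tRNA synthetases are the enzymes that load each amino acid onto its tRNA, and their RNAs were compared here between the pseudopodia and the cell bodies of migrating mouse fibroblasts. A list of 36 genes, 20 of cytosolic and 16 of mitochondrial synthetases, was matched to the platform annotation, and every probe set with exactly 1 gene symbol from the list was taken. This gave 71 of the 45101 probe sets on the array, 39 for 18 cytosolic genes and 32 for all 16 mitochondrial genes. Dars had no such probe set and was not analysed here. Mars, the methionyl enzyme, stands in the annotation under the newer symbol Mars1. Its probe set is described beside the complex it belongs to and is in none of the counts.

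The study used NIH/3T3 cells, an established mouse fibroblast line, with no genetic change given in the labels. Starved cells spread for 2 h on a fibronectin-coated porous membrane, and lysophosphatidic acid (LPA), a serum lipid that attracts fibroblasts, was placed below it at 150 ng/ml for 1 h. The 2 pseudopodia arrays hold RNA scraped from the underside after the cell bodies were wiped away, and the 2 cell body arrays hold RNA from the upper side after the pseudopodia were wiped away. Both fractions were starved, LPA-stimulated and fixed with formaldehyde, and unstimulated cells were not analysed here. The study's design calls the samples of a fraction independent without describing separate cultures, so the p-values below cover no more than the spread between arrays of a fraction, which may be technical.

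Each synthetase recognises 1 amino acid and its tRNAs, apart from Eprs, which joins the glutamyl and prolyl enzymes in 1 protein. In the cytosol several of them, with 3 scaffold proteins, form the multisynthetase complex, while others act alone. Mitochondria use another set, encoded in the nucleus and imported, to translate the few proteins of the mitochondrial genome; Gars and Kars serve both compartments from 1 gene. The synthetase classes I and II differ in the fold of the catalytic domain. Many cytosolic synthetase genes are transcribed under the control of ATF4, the transcription factor of the amino acid response.

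The fractions were described by 4 RNAs chosen because earlier results of these data had shown them to differ. They are therefore no independent check. The kinesin RNA Kif1c had signals of 4661.3 and 6704.9 in pseudopodia against 1149.0 and 1378.7 in cell bodies, and the nucleus-retained RNA Neat1 had 687.2 and 927.2 in pseudopodia against 3384.9 and 3909.5 in cell bodies. Their log2 differences were 2.14 and -2.17, and those of Pkp4 and Rab13 were 2.06 and 1.99. A list of 6 nucleus-retained RNAs, Neat1 among them, had a median of -0.76. Of these 6, 2 passed the test as lower and none as higher (2.61% of all genes were lower and 1.3% higher). Of 12 fibroblast markers 10 were above the filter on dim signals; Lum and Thy1 were not. Among markers of other cell types, 2 of 6 for blood (Cd68 and Lyz2), 2 of 6 for fat and muscle (Acta1 and Des) and 4 of 7 for epithelium (Cdh1, Epcam, Krt14 and Krt8) were above it, and none of these passed the test. Summed over each list, signals were 254.9 and 278.9 in pseudopodia against 417.5 and 349.9 in cell bodies for blood, where the fractions did not overlap. They were 356.7 and 496.0 in pseudopodia against 300.3 and 405.3 in cell bodies for fat and muscle, and 2423.2 and 2808.0 in pseudopodia against 2967.1 and 2571.8 in cell bodies for epithelium, both with overlap. The 3' to 5' signal ratio of the beta-actin control, a sign of RNA integrity, differed between the fractions: pseudopodia over cell bodies was 1.14 in the first pair of arrays and 1.81 in the second, and 1.05 and 1.06 for Gapdh. The part of this difference, and of the blood markers, in the results below was not tested.

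Values are MAS5 signals on a linear scale, scaled to the same trimmed mean on every array, so a difference compares shares of the signal in each fraction. Fewer cells or protrusions and less RNA in each cannot be told apart. Signals of different probe sets cannot be compared with each other. Differences are log2 of pseudopodia over cell bodies ± SE of a limma fit over 22519 probe sets with a mean signal of at least 30, with p adjusted over all of them and n = 2 arrays a group throughout.

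Synthetase RNAs were measured in both fractions, and the test called few of their probe sets different. Of the 71 probe sets 60 were above the filter, and 1 of the 60 (1.67%) passed the test, a dim probe set of Farsa that was lower in pseudopodia; none was higher. That probe set was above the filter only through the cell body arrays, so its passing carries no weight as support for a difference among the synthetases. Over all probe sets tested, 4.47% passed, 1.09% higher and 3.38% lower in pseudopodia. At an unadjusted p under 0.05 there were 12 of the 60 (20%), against 22.2% of all probe sets. Replicate numbers follow the day of scanning. A fit blocked on that day called 5 synthetase probe sets higher (8.33%, against 7.31% of all probe sets) and 4 lower (6.67%, against 11.9%). That fit keeps 1 residual degree of freedom, so its p-values rest mostly on the spread shared by all probe sets. The unblocked fit keeps 2, beside 5.66 taken from that shared spread, so its p-values and intervals also rest mostly on it. Without regard to any test, both pseudopodia arrays lay above both cell body arrays in 11 of the 60 (18.3%, against 24.7% of all probe sets) and below in 23 (38.3%, against 28.3%). At least 1.5-fold in all 4 pairs of arrays, 0 of the 60 lay above (2.88% of all probe sets) and 3 below (8.07%), namely 2 of Farsa and the dimmer one of Cars2.

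Each gene is represented below by its brightest probe set, and 33 of the 34 genes had one above the filter. None of the 33 passed, where 3.91% of all 10960 genes did, and 5 (15.2%) had an unadjusted p under 0.05, against 21.2% of all genes. Blocked on scan day, 4 of the 33 were higher (8.28% of all genes) and 1 was lower (10.3% of all genes). Without pseudopodia replicate 1, differences were 0.80 in Qars, 0.59 in Nars, 0.67 in Hars, -0.72 in Farsa, -0.72 in Vars and -0.91 in Cars. Without pseudopodia replicate 2 instead, the same genes in that order stood at 0.39, 0.45, -0.10, -0.35, -0.52 and -0.28. These genes were picked after their values were seen. On all 4 arrays the differences of the 33 genes ran from -0.62 in Vars to 0.61 in Farsb, with a median of -0.15, against 0.01 over all genes. The 95% intervals of these differences had a median half-width of 0.53, a factor of 1.44, and they reached from -1.20 at the lowest bound to 1.11 at the highest. Differences the size of Kif1c or Neat1 therefore lay outside the interval of every one of these probe sets. The intervals are not adjusted for the number of probe sets, so the test could miss differences larger than 1.44-fold. Farsb at 1.52-fold higher, Qars at 1.51-fold higher and Vars at 1.53-fold lower in pseudopodia did not pass. Across the 33 genes the differences of the 2 replicate pairs correlated with r = 0.58, against 0.55 over all genes; this is across genes that share arrays and are not independent replicates.

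**Figure D1:**
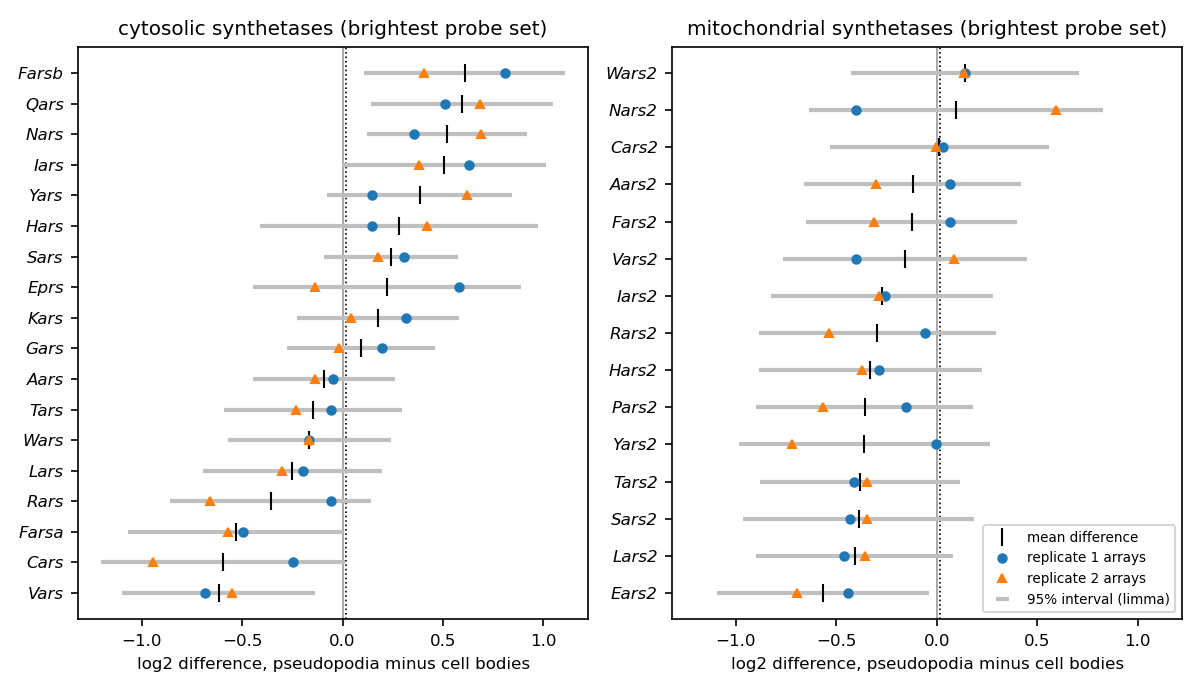
Log2 difference between pseudopodia and cell bodies for the brightest probe set of each of the 33 genes above the filter, with the value of each replicate pair, the mean and the 95% interval of the limma fit; the dotted line is the median of all genes. The 18 cytosolic genes lie on both sides of 0 (-0.62 to 0.61), and 12 of the 15 mitochondrial genes lie below it.

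Among the 18 cytosolic synthetases 10 differences were positive and 8 negative, with a median of 0.13 (0.15 in replicate 1 and -0.08 in replicate 2). This median was negative after quantile normalization (-0.05) and on hybridization controls (-0.20), where the median of all probe sets was -0.32. Relative to the median of all probe sets it was 0.16 here, -0.09 after quantile normalization and 0.12 on hybridization controls. For 7 of the 18 both pseudopodia arrays lay above both cell body arrays, and for 6 both lay below. Such separation was found in 27.4% of all genes upwards and 25.2% downwards. Among the 3665 genes with signals in the same range it was 31.7% upwards and 26.1% downwards. None of the 18 passed the test in either direction.

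The 4 highest differences came from inside and outside the complex. Qars, the glutaminyl enzyme and a member of the multisynthetase complex, had signals of 4998.0 and 6656.3 in pseudopodia against 3508.0 and 4137.2 in cell bodies, with a difference of 0.60 ± 0.20 (adjusted p = 0.126). Iars, the isoleucyl enzyme of the same complex, had 1536.1 and 1746.1 in pseudopodia against 987.1 and 1339.6 in cell bodies (0.50 ± 0.22, adjusted p = 0.230). In both genes the pseudopodia arrays lay above the cell body arrays without overlap. Nars, which charges asparagine outside the complex, had 3848.6 and 4242.2 in pseudopodia against 3008.8 and 2628.4 in cell bodies (0.52 ± 0.17, adjusted p = 0.129). Farsb, the beta subunit of the phenylalanyl enzyme, had 1781.7 and 1831.8 in pseudopodia against 1009.0 and 1380.4 in cell bodies (0.61 ± 0.21, adjusted p = 0.150). Blocked on scan day, these 4 passed, at adjusted p = 0.00410 for Qars, 0.0468 for Iars, 0.0181 for Nars and 0.0171 for Farsb. They were positive under all 3 other scalings tried.

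The next in order were Yars, the tyrosyl enzyme, with 1760.5 and 2096.2 in pseudopodia against 1588.4 and 1359.2 in cell bodies (0.38 ± 0.20), and Hars, the histidyl enzyme, with 1124.8 and 1932.1 in pseudopodia against 1016.0 and 1438.3 in cell bodies (0.28 ± 0.30). Yars arrays separated by fraction and Hars arrays overlapped; Hars stood at -0.05 on hybridization controls and at -0.10 without pseudopodia replicate 2. Sars, the seryl enzyme, had 8195.4 and 7651.0 in pseudopodia against 6631.5 and 6767.5 in cell bodies (0.24 ± 0.14), but its sign turned after quantile normalization (-0.02) and on hybridization controls (-0.09). Adjusted p for the 3 lay between 0.304 and 0.630.

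At the other end, Vars, the valyl enzyme, had 1271.2 and 1106.0 in pseudopodia against 2050.3 and 1626.4 in cell bodies, the lowest difference of the 33 (-0.62 ± 0.21, adjusted p = 0.133, and 0.0131 blocked on scan day). Cars, the cysteinyl enzyme, had 547.8 and 347.1 in pseudopodia against 653.0 and 681.8 in cell bodies (-0.59 ± 0.26, adjusted p = 0.233). The replicates of Cars differed widely, at -0.25 and -0.94. Rars, the arginyl enzyme of the complex, had 1380.3 and 1044.7 in pseudopodia against 1438.0 and 1658.0 in cell bodies (-0.36 ± 0.22, adjusted p = 0.375). In all 3 genes both pseudopodia arrays lay below both cell body arrays, and the negative sign held under the 3 other scalings.

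The phenylalanyl enzyme is built from 2 kinds of subunit, alpha from Farsa and beta from Farsb. Their brightest probe sets stood on opposite sides. The brightest probe set of Farsa had 747.7 and 574.6 in pseudopodia against 1061.3 and 859.8 in cell bodies (-0.53 ± 0.23, adjusted p = 0.228), while that of Farsb stood at 0.61. The interval of Farsa, -1.07 to 0.00, does not reach that of Farsb, 0.11 to 1.11, although neither subunit passed on its own and the difference between the genes was not tested. Both pairs of arrays gave these signs on the brightest probe sets, with -0.50 and -0.57 in Farsa and 0.81 and 0.40 in Farsb. The contrast depended on the probe set chosen for Farsb. Its probe set 1423708_a_at stood at -0.41, on the side of Farsa, with an interval of -1.17 to 0.35 that overlaps that of Farsa. The remaining Farsb probe sets stood at 0.47 and 0.83.

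The 1 probe set that passed was a dimmer one of Farsa, 1440063_at, with 24.6 and 9.9 in pseudopodia against 139.8 and 132.0 in cell bodies. The means were 17.25 in pseudopodia and 135.9 in cell bodies, a ratio of 7.88 on the scale of the signals. On the log2(signal + 32) scale it differed by -2.23 ± 0.36 (adjusted p = 0.0254), with a pseudocount of 1 by -3.08, and with the largest pseudocount tried by -1.30. Its pseudopodia mean lay below the filter value of 30, so it was tested only because its cell body signals were high. Another probe set of Farsa, 1445003_at, had 3.0 and 18.8 in pseudopodia against 62.7 and 58.9 in cell bodies (-1.58 ± 0.47, adjusted p = 0.0992, and 0.0298 blocked on scan day). It too was above the filter only through the cell bodies, and neither dim probe set adds support to the value of the brightest. The last, 1446301_at, was below the filter at 38.1 and 11.2 in pseudopodia and 48.8 and 8.9 in cell bodies. The 2 dim probe sets were thus farther towards the cell bodies than the brightest one by more than 1 log2 unit. Where these probe sets lie within the gene was not analysed here. The call on 1440063_at ended without the variance trend (adjusted p = 0.0668), without the filter on dim probe sets (adjusted p = 0.0786), and without either cell body array (adjusted p = 0.269 without replicate 1 and 0.221 without replicate 2). Over the alternatives in which it was tested, adjusted p ran from 2.25e-05 to 0.269, and it lay below the stricter filter.

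**Figure D2:**
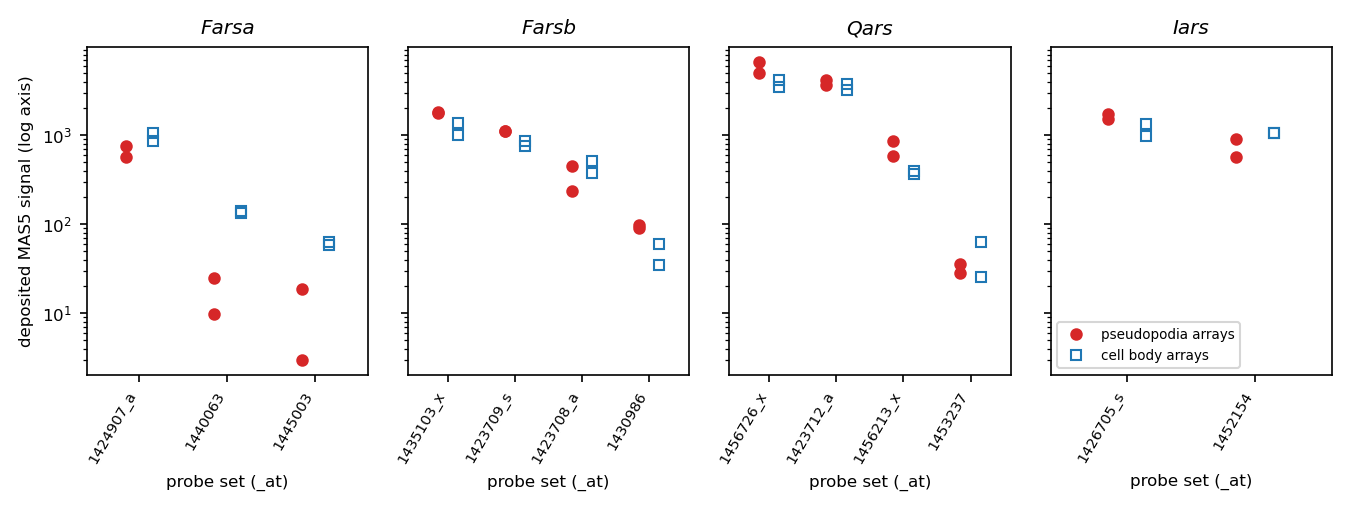
Deposited MAS5 signal on a log axis for every probe set above the filter of Farsa, Farsb, Qars and Iars, the 4 genes whose probe sets differ by more than 1 log2 unit, with the 2 pseudopodia arrays left of the 2 cell body arrays. The dim Farsa probe set 1440063_at reads 24.6 and 9.9 in pseudopodia against 139.8 and 132.0 in cell bodies, and the 2 Iars probe sets lie on opposite sides.

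The 8 complex members on the list have 6 genes measured here, with differences of both signs. Whether these 6 differed from each other was not tested. Their median was 0.20 (0.41 in replicate 1 and -0.05 in replicate 2), with 4 positive and 2 negative, against -0.00 for the 12 cytosolic genes outside the complex, of which 6 were positive. None passed in either group. Eprs had 1389.3 and 774.5 in pseudopodia against 923.0 and 853.0 in cell bodies (0.22 ± 0.29), with opposite signs in the 2 replicates. Kars, the lysyl enzyme, had 3645.0 and 3577.4 in pseudopodia against 2926.5 and 3479.7 in cell bodies (0.18 ± 0.17). Lars, the leucyl enzyme, stood at -0.25 ± 0.19. Mars1 had 809.4 and 1028.0 in pseudopodia against 1004.4 and 1061.0 in cell bodies (-0.18 ± 0.21, adjusted p = 0.679).

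Of the scaffold proteins that hold the complex together, Aimp1 had 2829.4 and 2596.5 in pseudopodia against 1805.1 and 1754.4 in cell bodies (0.60 ± 0.17, adjusted p = 0.0939, and 0.00959 blocked on scan day). Its arrays did not overlap. Aimp2 stood at 0.09 ± 0.20 and Eef1e1 at -0.08 ± 0.22, both with overlapping arrays. The synthetases of the complex thus ran from -0.36 in Rars to 0.60 in Qars, and only Qars had an unadjusted p under 0.05 among them.

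Gars, the glycyl enzyme shared by cytosol and mitochondria, had 5917.6 and 5964.9 in pseudopodia against 5162.0 and 6029.3 in cell bodies. Its difference of 0.09 had one of the narrower intervals, -0.28 to 0.46. Kars, the other shared enzyme, had an interval of -0.22 to 0.58. Neither showed a difference beyond the spread between arrays.

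On their brightest probe sets the mitochondrial synthetases stood slightly towards the cell bodies. Of 15 genes above the filter 12 had negative differences and 3 positive ones, with a median of -0.30 (-0.26 in replicate 1 and -0.35 in replicate 2), against 0.01 over all genes and -0.06 over the 3238 genes with signals in the same range. In 9 of the 15 both pseudopodia arrays lay below both cell body arrays, where 30.4% of the genes in that signal range and 25.2% of all genes did. In none did both lie above, where 22.2% of the genes in that range and 27.4% of all genes did. None passed the test, 1 had an unadjusted p under 0.05, and none passed when blocked on scan day. Relative to the median of all probe sets, that of the mitochondrial genes was -0.27 here, -0.19 after quantile normalization and -0.28 on hybridization controls. Positive differences were found in 5 genes after median centring, after quantile normalization and with the median over each gene's probe sets. On hybridization controls there were 0. The genes share the same arrays, so their number is no replication.

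Ears2, the mitochondrial glutamyl enzyme, was the lowest, with 167.1 and 158.6 in pseudopodia against 232.6 and 266.3 in cell bodies (-0.57 ± 0.23, adjusted p = 0.197). Lars2, the leucyl enzyme, followed with 318.7 and 340.8 in pseudopodia against 444.1 and 441.7 in cell bodies (-0.41 ± 0.21, adjusted p = 0.304). Sars2, the seryl enzyme, had 158.5 and 133.3 in pseudopodia against 219.5 and 173.7 in cell bodies (-0.39 ± 0.25). In these 3 both pseudopodia arrays lay below both cell body arrays.

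Tars2, the threonyl enzyme, had 337.8 and 382.8 in pseudopodia against 454.9 and 492.0 in cell bodies (-0.38 ± 0.21). Pars2, the prolyl enzyme, had 217.7 and 176.2 in pseudopodia against 243.8 and 268.3 in cell bodies (-0.36 ± 0.23). Yars2, the tyrosyl enzyme, had 188.0 and 124.0 in pseudopodia against 188.3 and 214.7 in cell bodies (-0.36 ± 0.27). The Yars2 value came almost wholly from replicate 2, at -0.72 against -0.00 in replicate 1. A dimmer probe set stood on the other side in Tars2 (0.20 ± 0.33) and in Yars2 (0.44 ± 0.31), both with overlapping arrays. Adjusted p for the 3 lay between 0.345 and 0.479.

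The highest mitochondrial gene was Wars2, the tryptophanyl enzyme, with 134.5 and 154.3 in pseudopodia against 120.3 and 138.9 in cell bodies. Its difference of 0.14 ± 0.24 was smaller than its error, and its arrays overlapped. Nars2 had opposite signs in the replicates, at -0.40 and 0.60, with a mean of 0.10, and Cars2 stood at 0.01. Mars2 was below the filter on both of its probe sets, with 23.7 and 17.7 in pseudopodia against 13.4 and 33.5 in cell bodies on the brighter one. Nars2, Cars2 and 10 other genes had differences from -0.33 to 0.10 and adjusted p from 0.466 to 0.982. The 10 were Aars, Tars, Wars and Lars in the cytosol and Aars2, Fars2, Hars2, Iars2, Rars2 and Vars2 in mitochondria.

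Partners that charge the same amino acid in the 2 compartments can be set side by side. In 9 of 14 such pairs the cytosolic gene had the higher difference, also in 9 of 14 within each replicate, with Fars2 set against both Farsa and Farsb. The widest such gaps were those of Iars at 0.50 over Iars2 at -0.27, Yars at 0.38 over Yars2 at -0.36, and Farsb at 0.61 over Fars2 at -0.12. These depended on the probe set chosen. With the median over each gene's probe sets, the cytosolic gene stood higher in 7 of the 14 pairs, and the order of 4 pairs turned, among them Iars at -0.02 and Iars2 at 0.15. The other Iars2 probe set had 51.1 and 52.3 in pseudopodia against 30.7 and 28.9 in cell bodies (0.56 ± 0.36). Its cell body mean of 29.8 lay below the filter value of 30, so it was tested only because its pseudopodia signals were high. It carries no weight as support for the turned order of Iars and Iars2. The Farsa median of -1.58 likewise came from a dim probe set that was above the filter only through the cell bodies. On the brightest probe sets the order was the opposite for Cars at -0.59 and Cars2 at 0.01, and for Vars at -0.62 and Vars2 at -0.16. Aars stood at -0.09 and Aars2 at -0.12. The gaps between partners were not tested. By catalytic class, the median was -0.25 in the 17 class I genes above the filter and -0.09 in the 17 of class II, with Eprs in both.

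The probe sets of a gene often disagreed. Of 19 genes with several probe sets above the filter, 12 had differences of both signs, the median span was 0.58, and 4 spanned more than 1 log2 unit. The second probe set of Iars had 899.1 and 570.2 in pseudopodia against 1052.4 and 1060.9 in cell bodies (-0.55 ± 0.25), opposite to the brightest at 0.50. Both Iars probe sets separated the fractions without overlap, in opposite directions. Farsb stood at 0.61, 0.47, 0.83 and -0.41 on its 4 probe sets. Qars stood at 0.60 and 0.86 on probe sets with the suffix _x_at, whose probes may also match other transcripts, and at 0.17 and -0.27 on its others. The dimmer probe set of Aars had 3332.1 and 3001.2 in pseudopodia against 3909.8 and 4730.7 in cell bodies (-0.44 ± 0.18, adjusted p = 0.199, and 0.0457 blocked on scan day), where the brightest stood at -0.09.

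The type of probe set moved with the value. In each of the 6 synthetase genes with both kinds above the filter, Farsb, Qars, Wars, Fars2, Tars2 and Yars2, the median of the _x_at probe sets was higher than that of the others, by 0.13 to 0.80. Over the whole array the 1546 _x_at probe sets above the filter also stood higher, at a median of 0.22, against -0.07 for 16331 plain _at probe sets. Of the 4 cytosolic genes with the highest differences, Qars and Farsb are represented by an _x_at probe set. Represented by their brightest other probe set, an alternative chosen after seeing the data, Qars stood at 0.17 and Farsb at 0.47, and the cytosolic median stayed at 0.13. Taking the median over each gene's probe sets gave 0.02 for cytosolic and -0.27 for mitochondrial genes. The part of other transcripts in these signals was not tested.

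**Figure D3:**
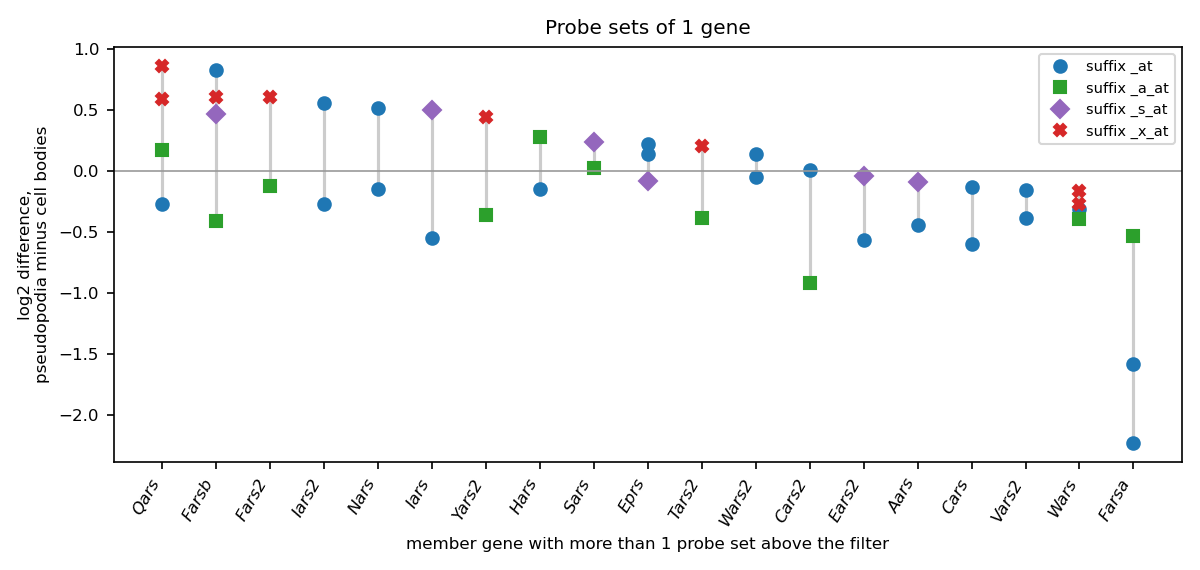
Log2 difference between pseudopodia and cell bodies for each probe set above the filter of the 19 synthetase genes that have more than 1, by probe set suffix; the line joins the probe sets of a gene. Differences of both signs occur in 12 genes, the _x_at probe sets stand above the median of the others in all 6 genes that have both, and Farsa reaches -2.23.

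Genes that work around the synthetases were taken from 3 further lists. Of 22 partners in aminoacylation, among them scaffolds and tRNA amidotransferase subunits, 19 were annotated and 18 were above the filter, with a median of 0.05, and none passed; 3 (16.7%) had an unadjusted p under 0.05, against 21.2% of all genes. Gatc, a subunit of the mitochondrial enzyme that makes glutaminyl-tRNA from glutamyl-tRNA, had 327.7 and 307.7 in pseudopodia against 207.5 and 170.0 in cell bodies (0.71 ± 0.23, adjusted p = 0.122, and 0.0307 blocked on scan day). The partner subunits Gatb and Qrsl1 stood at 0.25 and 0.01 with overlapping arrays. Gatc was named after its value was seen.

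Of 48 genes for processing, modification and export of tRNA, 46 were annotated and 45 were above the filter, with a median of -0.03, and none passed; 7 (15.6%) had an unadjusted p under 0.05, against 21.2% of all genes. Blocked on scan day, 4 were higher (8.89%, against 8.28% of all genes) and 3 lower (6.67%, against 10.3%). Trnt1, which adds the CCA end that synthetases charge, had 153.9 and 177.4 in pseudopodia against 72.2 and 87.7 in cell bodies (0.92 ± 0.26, adjusted p = 0.0829, and 0.0180 blocked on scan day), the highest of the list. A dimmer probe set of Trnt1, below the filter, stood on the other side, with 8.4 and 11.6 in pseudopodia against 36.8 and 31.6 in cell bodies. Xpot, which exports tRNA from the nucleus, stood at -0.17 ± 0.19. Trnt1 and Xpot were named after their values were seen.

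The amino acid response list holds ATF4, related factors and recognised targets other than the synthetases. Of 35 genes 34 were above the filter, 1 was higher, 2 were lower and 31 did not pass (1.3% of all genes were higher and 2.61% lower). The median of the 34 was -0.24, and 11 (32.4%) had an unadjusted p under 0.05, against 21.2% of all genes. Both pseudopodia arrays lay below both cell body arrays in 41.2% (25.2% of all genes) and above in 23.5% (27.4%). Atf5, a related transcription factor, was higher, with 10073.2 and 8507.1 in pseudopodia against 4958.9 and 4201.3 in cell bodies (1.02 ± 0.17, adjusted p = 0.0266). Slc1a5, a glutamine transporter, was lower, with 1370.8 and 1213.3 in pseudopodia against 2710.4 and 2779.1 in cell bodies (-1.08 ± 0.18, adjusted p = 0.0270). Slc7a5, the light chain of a leucine transporter, was also lower, with 2226.4 and 1646.7 in pseudopodia against 3720.4 and 3670.6 in cell bodies (-0.94 ± 0.20, adjusted p = 0.0449). These 3 calls ended without the variance trend, without the filter and without either cell body array, that of Atf5 also after quantile normalization and on hybridization controls, and that of Slc7a5 after median centring and with a pseudocount of 1. Over the alternatives run on these probe sets adjusted p ran from 1e-05 to 0.226 for Atf5, 6.07e-05 to 0.275 for Slc1a5 and 0.000191 to 0.339 for Slc7a5. Blocked on scan day, 3 genes of the list were higher (8.82%, against 8.28% of all genes) and 9 lower (26.5%, against 10.3%). Atf4 itself stood at -0.48 ± 0.18 (adjusted p = 0.168, and 0.0188 blocked on scan day). Asns, asparagine synthetase, had 9144.8 and 9413.2 in pseudopodia against 8310.0 and 9149.6 in cell bodies (0.09 ± 0.14).

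All 9 amino acid transporters on the list had negative differences, from -1.08 to -0.35 with a median of -0.63, a split made after the values were seen. The 25 other genes of the list had a median of -0.01. Over all 203 Slc-named genes above the filter the median was -0.47. Of these, 21 were lower (10.3%, against 2.61% of all genes) and none higher (1.3% of all genes).

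**Figure D4:**
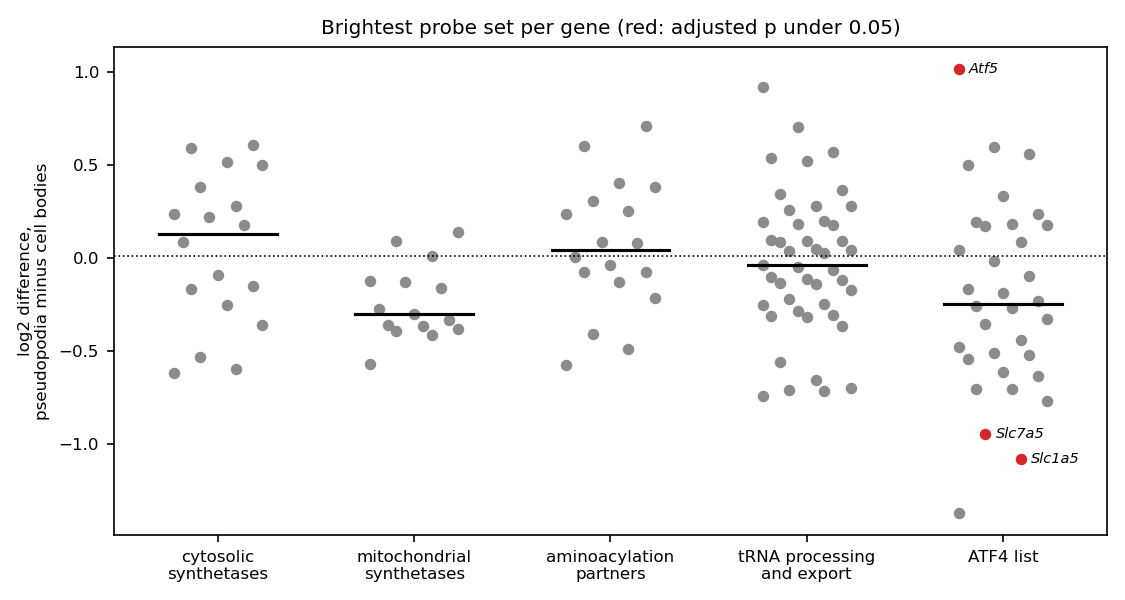
Log2 difference between pseudopodia and cell bodies for the brightest probe set of each gene above the filter in the 2 groups of synthetases and the 3 further lists; bars are medians and the dotted line is the median of all genes. Medians are 0.13 for cytosolic and -0.30 for mitochondrial synthetases, and the 3 red points, Atf5, Slc7a5 and Slc1a5, all lie in the ATF4 list.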

How the data were processed

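The authors deposited 1 linear intensity per probe set and array, which the submitters' processing notes name as MAS5, a method that uses mismatch probes and is noisy at low signal; no version is given. Leaving out 2% at each end, the mean was 250.0 on all arrays, so they had been scaled alike. Median signals were 31.0 and 33.3 on the pseudopodia arrays and 29.8 and 33.2 on the cell body arrays, and the number of arrays limits the precision. Per the file headers, chip lot and scanner did not vary, and the 2 scan days follow the replicate numbers.

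Signals were rescaled so that this mean was 500 and set on a log2(signal + 32) scale, where low genes show less change than they have. Those with a mean signal at or above the median of those that are not controls were tested with limma 3.58.1 in R 4.3.3 (variance trend, two-sided, Benjamini-Hochberg over all 22519, threshold 0.05), without a block. An exact permutation test of 2 against 2 arrays cannot go below 0.333, so none was run. Replicate 2 minus replicate 1 correlated with r = 0.24 between the fractions, and the shared scan day pairs the arrays, so values from a blocked fit stand beside the calls it changes among the genes named. The procedure was tested on simulated data. Gene names come from the platform annotation (34958 probe sets with 1 symbol, 932 with several, which were not used). Members, lists, tests and alternatives were chosen with earlier results of these data known. Named synthetases are those that passed, the 10 highest and 10 lowest, those whose probe sets span over 1 log2 unit, and Gars and Kars. Of other lists, genes that passed and the complex scaffolds are named. Atf4, Asns, Gatc, Gatb, Qrsl1, Trnt1 and Xpot did not pass and are named outside this rule. Protein and probe sequences were not used here.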

Additional observations from a re-analysis of the deposited data

How the results depend on the processing

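Counts of calls depended on the fit. The fit with a replicate block on scan day called 1647 probe sets higher and 2691 lower in place of 245 and 762; among synthetases 5 probe sets were higher and 4 lower in place of 0 and 1 (4 and 1 of the brightest, in place of 0 and 0), in the ATF4 list 3 and 9 genes in place of 1 and 2, in aminoacylation partners 2 higher, and in tRNA processing 4 higher and 3 lower. Without the variance trend nothing passed, 0 higher and 0 lower, although 4493 probe sets had an unadjusted p under 0.05. Without the filter 39 probe sets were higher and 137 lower, with 0 synthetases and 0 ATF4 list genes; the stricter filter left 0 synthetase probe sets lower, the Farsa probe set falling below it. On hybridization controls 54 were higher and 1554 lower, with 2 synthetase probe sets lower, 0 ATF4 list genes higher and 6 lower, and 1 tRNA processing gene lower. After median centring 370 were higher and 468 lower, with 1 ATF4 list gene lower, as with a pseudocount of 1. Quantile normalization left 0 ATF4 list genes higher. A filter on mean log2 values, chosen after seeing the data, gave 243 and 747. The median of all probe sets moved from -0.03 to 0.13 after median centring and -0.32 on hybridization controls, and 20 of 33 synthetases kept their sign under all 3 scalings.

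Leaving out 1 array leaves a lone array whose spread is assumed to equal the other group's. Probe sets higher ranged from 0 to 1334 and lower from 0 to 2696, with 0 without either cell body array and the highest counts without pseudopodia replicate 1. Over the same 4 fits synthetase probe sets higher ranged from 0 to 4 and lower from 0 to 8, synthetase genes from 0 to 3 in each direction, ATF4 list genes from 0 to 3 higher and 0 to 8 lower, partners from 0 to 1 higher, and tRNA processing genes from 0 to 4 higher and 0 to 2 lower. The median ran from 0.01 to 0.18 for cytosolic and from -0.30 to -0.22 for mitochondrial synthetases. Interval half-widths were 0.49 to 0.73 for the mitochondrial genes and 0.34 to 0.69 for the cytosolic ones, and the median span between probe sets of a gene was 0.58.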
